A study of Mus musculus with 6 samples.

Results

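The genes described are 37 transcripts of the integrated stress response and the unfolded protein response, chosen by symbol from a table of 24411 genes. All 37 were in the table and all 37 passed the filter on low counts. They were parted by role into 7 stress sensors, eIF2alpha kinases and phosphatase subunits, 10 genes for ATF4, other stress transcription factors and their feedback proteins, 8 amino acid and one-carbon enzymes, and 12 genes of protein folding and quality control in the endoplasmic reticulum (ER). RNA-seq libraries came from a pair of mouse endothelial lines with 3 libraries each. One was bEnd.3, which derives from BALB/c brain endothelium and carries the middle T antigen of polyomavirus as its immortalising gene. The other was UV2, also written UV♀2, of strain (BALB/c x C57BL/6)F1, whose origin is not described further in the labels. The labels name no ER stressor or other treatment, and both lines had been held at confluence for 3 days in medium lacking serum before RNA was collected, so the comparison is between lines in one culture condition. Transcripts of the 4 tested Y-linked genes were found in bEnd.3 and were at or below 3 counts per library in UV2. Line, strain and this Y-linked difference cannot be told apart in this design. Whether libraries of a line stem from separate cultures is not stated, and p-values then reflect only the spread between these libraries, which may be technical. Cells were detached with trypsin before RNA isolation in both lines.

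Cells respond to amino acid shortage, viral RNA, haem deficit or misfolded ER protein by phosphorylating the translation factor eIF2alpha. This lowers general protein synthesis while the mRNA of the transcription factor ATF4 is translated more, and ATF4 then raises genes for amino acid uptake, amino acid synthesis and tRNA charging. Misfolded protein in the ER is sensed by PERK, IRE1alpha and ATF6, and the factors XBP1 and cleaved ATF6 raise ER chaperones, oxidoreductases and degradation proteins. Endothelial cells secrete basement membrane and haemostatic proteins and fold them in the ER. ATF4, ATF6 and XBP1 are all controlled after transcription as well, by translation, cleavage and splicing, and gene-level RNA counts do not measure those steps.

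Levels are in CPM, each count normalised to its library's total after TMM scaling, and differences are log2 fold changes of UV2 over bEnd.3 (written log2 fold) with standard errors (SE). A gene was called where edgeR's quasi-likelihood test gave an adjusted p (Benjamini-Hochberg over all 12720 tested genes) under 0.05. Values written with ± are means and SDs over n = 3 libraries. Libraries held 21306441 to 28748128 expected counts, and 14614 to 15205 genes had a count. The endothelial markers Pecam1 and Cdh5 stood at 1878 to 2202 CPM and 3760.1 to 4269.9 CPM over the 6 libraries. Of the 10 endothelial markers 6 missed the threshold, Emcn (log2 fold -1.47, beyond 2-fold), Eng (-0.69) and Erg (-0.35) were lower in UV2, and Tie1 (0.88) was higher. Epithelial markers summed to at most 0.5398 CPM in any library, with Epcam at 0 in all of them. The 7 leukocyte markers summed to 89.9 to 159 CPM in bEnd.3 and 253 to 343 CPM in UV2, nearly all of it the lysosomal protein gene Cd68, while the defining marker Ptprc held 1 count in bEnd.3 and 0 in UV2. The 7 fibroblast markers summed to 3.12 to 3.46 CPM in bEnd.3 and 27.1 to 67.2 CPM in UV2. In UV2 most of it was the collagen gene Col3a1, at 0.954 ± 0.672 CPM (bEnd.3) and 32.1 ± 16.6 CPM (UV2). In bEnd.3 most of it on average was Pdgfra, at 2.07 ± 0.608 CPM (bEnd.3) and 10.99 ± 4.52 CPM (UV2). These were the 2 tested genes of that list, and both were higher in UV2 beyond 2-fold (log2 fold 5.13 and 2.39). The 8 pericyte and smooth muscle markers summed to 0.529 to 0.713 CPM in bEnd.3 and 3.701 to 6.25 CPM in UV2, with Cnn1 and Des at 0 in every library. Most of the UV2 sum was Pdgfrb, the 1 marker of this list that was tested. It had 0.287 ± 0.131 CPM (bEnd.3) and 4.36 ± 1.27 CPM (UV2) and was higher beyond 2-fold (log2 fold 3.94, SE 0.39). These marker sums were higher in UV2 as most of the genes below were, and their part in the results was not tested. In bulk libraries a change in the number of cells of a kind and a change in RNA per cell cannot be told apart.

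In UV2, 11 of 12 ER folding genes, 6 of 10 genes of the ATF4 factor group and 4 of 8 amino acid enzymes rose. Of the 7 genes of the sensor group 3 rose and 3 fell. Of the 37 genes, 24 were called higher and 6 lower in UV2, and 7 missed the threshold. Among all tested genes 67.1% were called, 33.9% were higher and 33.3% lower, so the members were called higher at 64.9% and lower at 16.2%. Their median log2 fold change was 0.72, where that of all tested genes was -0.0105. The ranges of the lines were apart at 31 of the 37 genes, 24 with UV2 higher and 7 with UV2 lower, and at 73.2% of all tested genes (36.5% with UV2 higher and 36.8% with UV2 lower). Differences beyond 2-fold, by edgeR's glmTreat, were fewer, with 6 genes higher (Ern1, Atf3, Asns, Creld2, Pdia6 and Calr) and 1 lower (Ddit4), beside 19.4% of all tested genes (10.6% higher and 8.81% lower). The 7 of 37 members are close to that background share. Every member's level in each library is shown in the plot of levels, and the differences in the plot of fold changes.

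**Figure D1:**
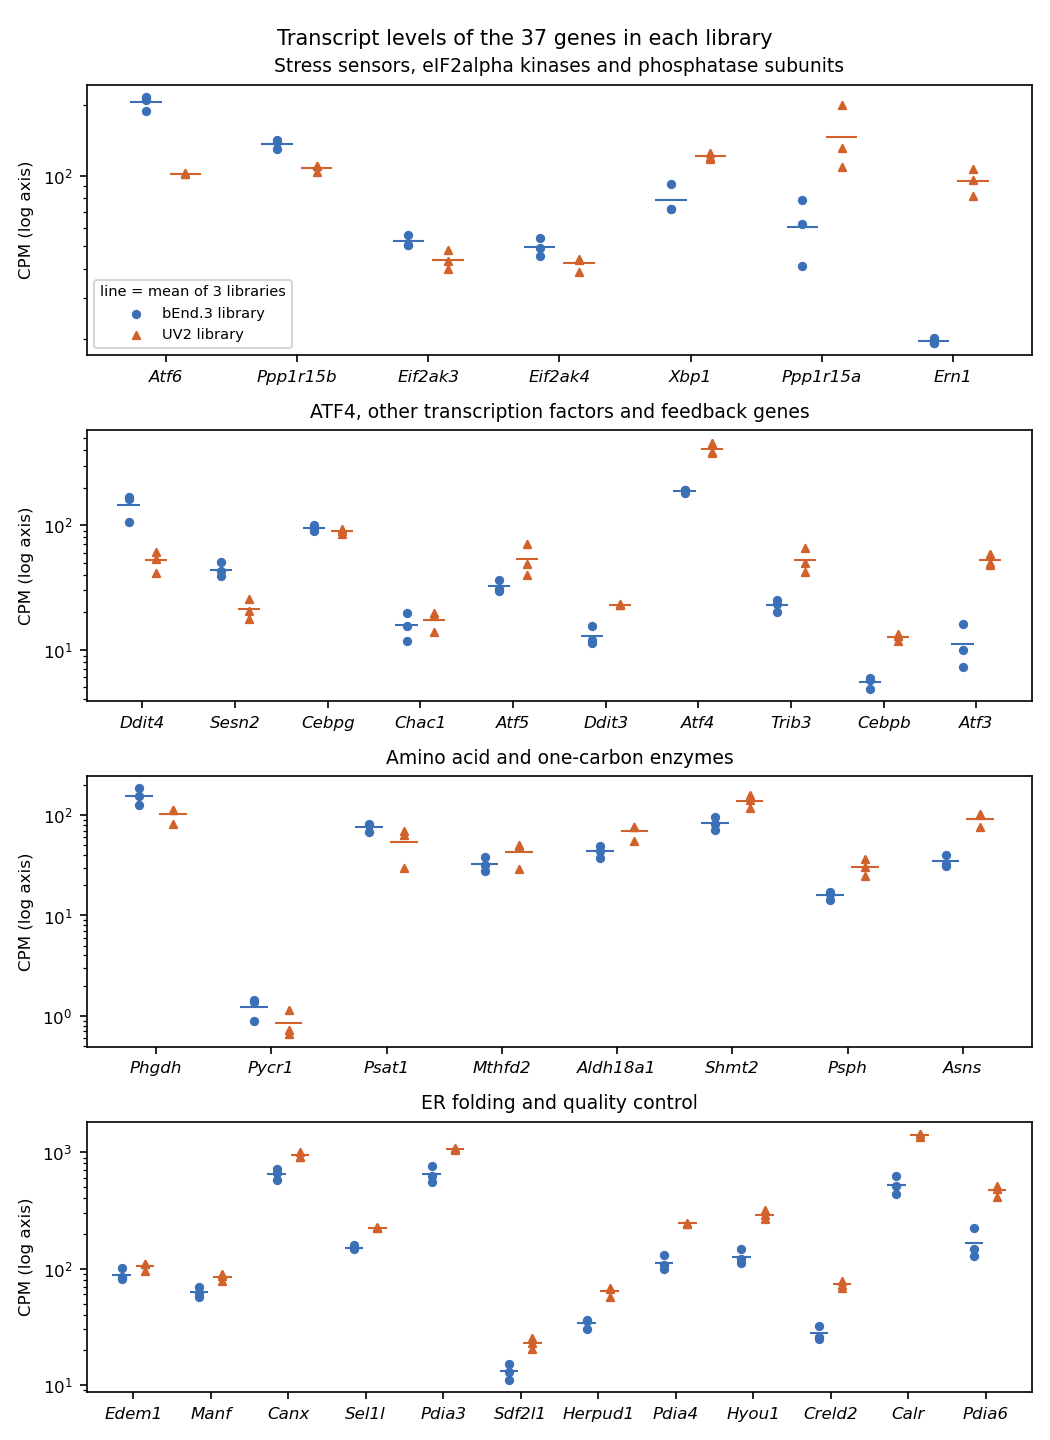
Level of each of the 37 genes in CPM on a log axis, in panels by role and ordered by fold change within a panel; circles are the 3 bEnd.3 libraries, triangles the 3 UV2 libraries and short lines their means. In the ER folding panel the UV2 triangles lie above the bEnd.3 circles for all genes but Edem1, while in the sensor panel Atf6 and Ern1 part in opposite directions.

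**Figure D2:**
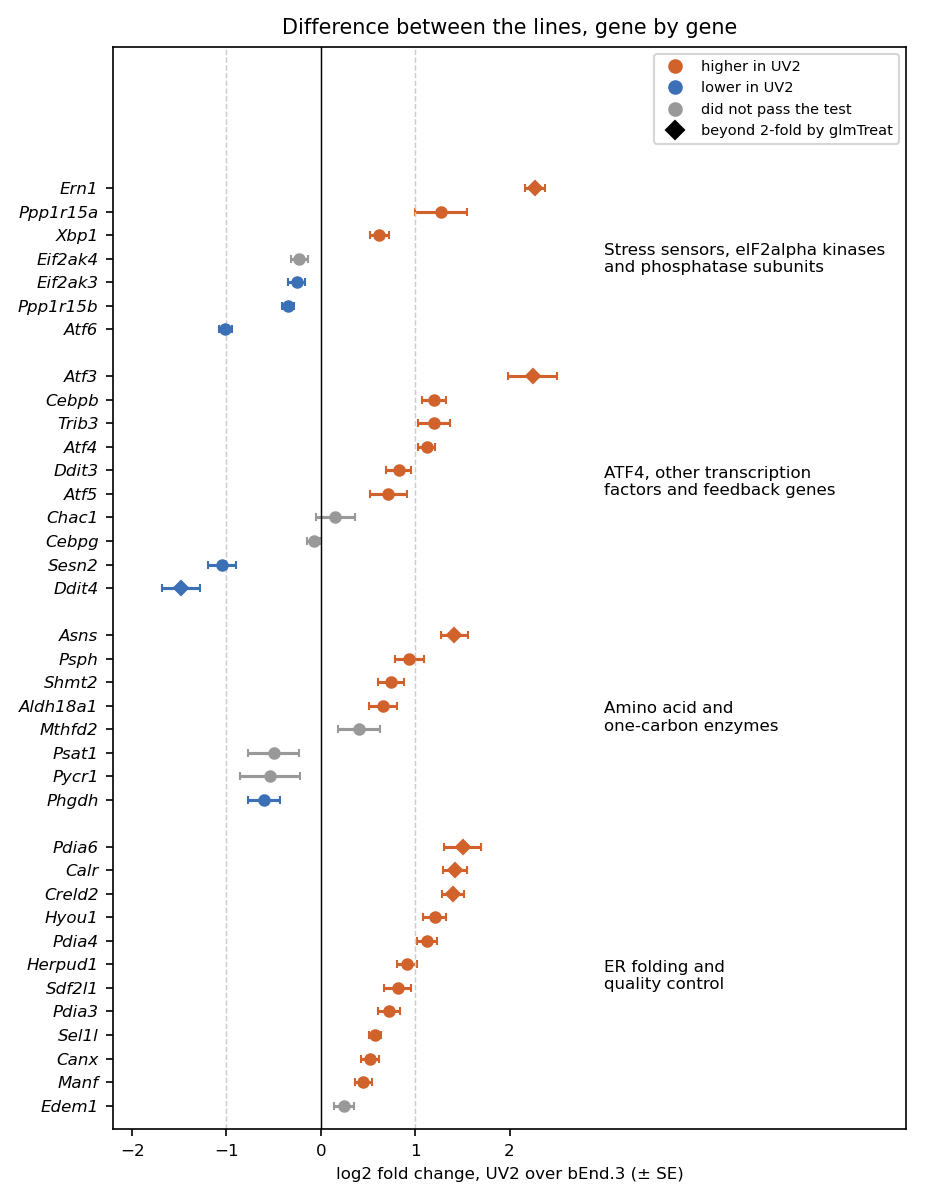
Log2 fold change of UV2 over bEnd.3 with its SE for each gene, grouped by role; orange marks genes higher in UV2, blue genes lower, grey genes that did not pass the test, and diamonds genes beyond 2-fold by glmTreat. Dashed lines stand at 2-fold in either direction. Of the 12 ER folding genes 11 are orange, against 4 of the 8 amino acid enzymes.

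Among the stress sensors and the eIF2alpha kinases and phosphatase subunits, 3 of 7 genes had higher and 3 had lower levels in UV2, and 1 missed the threshold (median log2 fold change -0.23). These were shares of 42.9% higher and 42.9% lower. Among all tested genes 33.9% were higher and 33.3% lower, which is the background for each role group. Ern1, which encodes the ER sensor kinase and endonuclease IRE1alpha (chr11:106397620-106487796 in mm10, as are all coordinates here), rose most of the 37 genes together with Atf3. Its level was 20.4, 19.3 and 19.3 CPM in bEnd.3 replicates 1, 2 and 3 and 107, 95.98 and 81.9 CPM in UV2 replicates 1, 2 and 3. The lowest UV2 library was far above the highest bEnd.3 library, and the 3 bEnd.3 libraries were nearly alike. The rise was 4.82-fold (log2 fold 2.27, SE 0.11, adjusted p = 1.5e-06). The order of Ern1 and Atf3 was not stable, since with limma-voom Ern1 stood at 2.26 and Atf3 at 2.35. Xbp1, whose mRNA IRE1alpha splices to give the active XBP1 factor (chr11:5520641-5525993), had 91.7, 72.3 and 72.3 CPM in the bEnd.3 libraries and 125, 120.4 and 118 CPM in those of UV2. All 3 UV2 libraries were above the bEnd.3 ones, and bEnd.3 replicate 1 stood highest in its line (log2 fold 0.62, SE 0.101, adjusted p = 0.000981). The counts do not part spliced from unspliced Xbp1.

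Atf6, the ER-anchored factor that is cut to release a transcriptional activator (chr1:170704457-170868585), went the other way. It had 217, 189 and 211 CPM in the bEnd.3 libraries and 103, 101 and 101 CPM in those of UV2. The UV2 libraries were nearly equal and all were below every bEnd.3 library, a level 2.02-fold lower (log2 fold -1.01, SE 0.072, adjusted p = 1.28e-05). It was not called beyond 2-fold (glmTreat adjusted p = 0.777). The Atf6 difference was smaller and still called with chromosome medians removed (log2 fold change -0.747, adjusted p = 6.82e-05). The same held with the median of the 50 nearest tested genes on each side removed (log2 fold change -0.696, adjusted p = 0.000102). Eif2ak3, which encodes the ER eIF2alpha kinase PERK, was slightly lower, at 52.4 ± 2.9998 CPM (bEnd.3) and 43.8 ± 4.16 CPM (UV2) (log2 fold -0.26, SE 0.089, adjusted p = 0.0328). That call was lost without any one of bEnd.3 replicates 1 or 2 or UV2 replicates 1 or 3 (adjusted p = 0.0776, 0.0646, 0.14 and 0.0799). Eif2ak4, the kinase GCN2 that senses uncharged tRNA, had 49.5 ± 4.33 CPM (bEnd.3) and 42.2 ± 2.96 CPM (UV2) and did not pass (log2 fold change -0.23, adjusted p = 0.0543), although it passed with scaling by total counts (adjusted p = 0.0158) and without bEnd.3 replicate 2 (adjusted p = 0.045). With chromosome medians removed its log2 fold change was 0.048.

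The pair of regulatory subunits that direct protein phosphatase 1 to eIF2alpha differed in direction. Ppp1r15a, the stress-induced subunit GADD34 (chr7:45522917-45526268), had 61.9, 41.2 and 78.8 CPM in the bEnd.3 libraries and 132, 109 and 199 CPM in those of UV2 (log2 fold 1.27, SE 0.28, adjusted p = 0.00431). The lines did not overlap, yet libraries of a line differed widely, with replicate 3 highest and replicate 2 lowest in both. Ppp1r15a was called beyond 2-fold only with the blocking term, 1 of 15 alternatives. Ppp1r15a is also known as an immediate early gene, and a list of 13 immediate early genes summed to 1245, 826 and 2222 CPM in bEnd.3 replicates 1, 2 and 3 and 883, 651 and 1419 CPM in UV2 replicates 1, 2 and 3. The sums thus had the same highest and lowest library in each line. Of that list 2 genes rose in UV2 (15.4%), 2 fell (15.4%) and 9 missed the threshold, beside 33.9% higher and 33.3% lower among all tested genes. With replicate number as a blocking term 3 of the list rose, 7 fell and 3 missed it, beside 4380 higher and 4302 lower of all 12720 tested genes. The part of the immediate early pattern in the Ppp1r15a difference was not tested. Ppp1r15b, the constitutive subunit CReP, was lower in UV2, from 137 ± 5.97 to 108 ± 3.297 CPM (log2 fold -0.34, SE 0.064, adjusted p = 0.00188). This small difference was not called with chromosome medians removed (log2 fold change -0.079, adjusted p = 0.311) or with the median of the 50 nearest tested genes on each side removed (log2 fold change -0.0063, adjusted p = 0.938).

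ATF4 and the stress factors downstream of it were mostly higher in UV2, and a pair of feedback genes was lower. In this group 6 of 10 genes were higher, 2 lower and 2 did not pass the test, with a median log2 fold change of 0.77. Atf4 itself (chr15:80255184-80257545) had 189.9, 181 and 191 CPM in the bEnd.3 libraries and 459, 380.4 and 385 CPM in those of UV2. The bEnd.3 libraries were close together and each UV2 library was above them, by 2.18-fold on average (log2 fold 1.12, SE 0.088, adjusted p = 2.13e-05). Atf4 lies on chromosome 15, where the median log2 fold change of tested genes was 0.503, and it was 0.46 for the neighbours of Atf4. With the neighbours' median removed the Atf4 difference was smaller and still called (log2 fold change 0.66, adjusted p = 0.000377).

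Atf3, a repressor and activator induced by many stresses (chr1:191170296-191183333), rose most in the group. It had 16.01, 9.97 and 7.23 CPM in the bEnd.3 libraries and 58.8, 48.1 and 49.8 CPM in those of UV2, 4.75-fold higher (log2 fold 2.25, SE 0.26, adjusted p = 0.000157). No library of one line reached the range of the other, and replicate 1 stood highest in each. Ddit3, which encodes the death-linked factor CHOP (chr10:127290793-127296291), had 11.3, 11.9 and 15.5 CPM in the bEnd.3 libraries and 23.2, 22.98 and 22.7 CPM in those of UV2 (log2 fold 0.82, SE 0.13, adjusted p = 0.000836). The UV2 libraries were almost equal and all above bEnd.3. Atf5, which is translated under eIF2alpha phosphorylation as ATF4 is, rose from 32.3 ± 3.47 to 53.02 ± 15.3 CPM (log2 fold 0.72, SE 0.19, adjusted p = 0.0121). Cebpb, a C/EBP partner of ATF4 and CHOP, rose from 5.51 ± 0.552 to 12.7 ± 0.923 CPM (log2 fold 1.204, SE 0.13, adjusted p = 9.82e-05), and Trib3, a pseudokinase that feeds back on ATF4 and CHOP, rose from 22.9 ± 2.58 to 52.6 ± 12.3 CPM (log2 fold 1.199, SE 0.17, adjusted p = 0.000471).

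Cebpg, the C/EBP partner with which ATF4 binds composite sites, had 94.2 ± 5.63 CPM (bEnd.3) and 89.3 ± 4.38 CPM (UV2) and did not pass (log2 fold change -0.076, adjusted p = 0.371). Its sign turned with chromosome medians removed, where it was called higher (log2 fold change 0.21, adjusted p = 0.0347). Chac1, a glutathione-degrading enzyme induced by ATF4 and CHOP, had 19.8, 11.8 and 15.4 CPM in the bEnd.3 libraries and 18.8, 19.8 and 13.8 CPM in those of UV2. Its libraries overlapped (log2 fold change 0.15, SE 0.21, adjusted p = 0.538). Without bEnd.3 replicate 2 the sign of its small difference turned (log2 fold change -0.0076).

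Ddit4, which encodes the mTORC1 inhibitor REDD1 (chr10:59949675-59951770), and Sesn2, which encodes the leucine sensor and mTORC1 inhibitor sestrin-2 (chr4:132492804-132510456), were the lower genes of the group. Ddit4 had 106, 166 and 163 CPM in the bEnd.3 libraries and 41.6, 61.1 and 53.4 CPM in those of UV2, and replicate 1 was the lowest library in each line. The lines did not overlap, and UV2 was 2.79-fold lower (log2 fold -1.48, SE 0.201, adjusted p = 0.000363). It passed the test beyond 2-fold (glmTreat adjusted p = 0.0297) but not with DESeq2 or limma-voom, nor without bEnd.3 replicate 2 or 3 or UV2 replicate 1 or 3, when no member was called lower beyond 2-fold. Sesn2 had 42.7, 38.7 and 50.3 CPM in the bEnd.3 libraries and 20.6, 25.4 and 17.8 CPM in those of UV2, again without overlap, and was 2.07-fold lower (log2 fold -1.05, SE 0.15, adjusted p = 0.000498). Its neighbours on chromosome 4 were higher in UV2 (median log2 fold change 0.699), and with that removed Sesn2 stood at -1.75. Both genes are also known targets of p53. In a list of 11 other p53 targets none rose in UV2, 10 fell (90.9%) and 1 missed the threshold (median log2 fold change -1.49). Among all tested genes 33.9% were higher and 33.3% lower. The cell cycle inhibitor Cdkn1a (log2 fold -3.89, SE 0.12, adjusted p = 2.25e-07) and the cyclin Ccng1 (log2 fold change -3.33) fell most, and the part of p53 in the Ddit4 and Sesn2 differences was not tested.

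Amino acid and one-carbon enzymes, the metabolic arm of the ATF4 response, did not move as one. Of the 8 genes, 4 rose in UV2, 1 fell and 3 missed the threshold, with a median log2 fold change of 0.53. Asns, asparagine synthetase (chr6:7675165-7693209), had 40.05, 31.02 and 32.7 CPM in the bEnd.3 libraries and 101, 99.6 and 75.3 CPM in those of UV2. The lowest UV2 library, replicate 3, was well above all bEnd.3 libraries, and the rise was 2.66-fold (log2 fold 1.41, SE 0.14, adjusted p = 7.74e-05). It was beyond 2-fold by glmTreat (adjusted p = 0.0137), though not with limma-voom, with chromosome or neighbouring-gene medians removed, or without bEnd.3 replicate 2 or UV2 replicate 2. Shmt2, the mitochondrial serine hydroxymethyltransferase, rose from 82.6 ± 12.7 to 138 ± 19.96 CPM (log2 fold 0.74, SE 0.14, adjusted p = 0.00196). Aldh18a1, which makes the proline precursor pyrroline-5-carboxylate, rose from 43.5 ± 6.31 to 68.7 ± 12.04 CPM (log2 fold 0.66, SE 0.15, adjusted p = 0.00567).

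The serine pathway itself was split among its 3 enzymes. Phgdh, which takes 3-phosphoglycerate into the pathway (chr3:98313171-98339969), had 185, 156 and 126 CPM in the bEnd.3 libraries and 112, 113 and 81.9 CPM in those of UV2. All UV2 libraries were below the lowest bEnd.3 library (log2 fold -0.603, SE 0.17, adjusted p = 0.0134). Psat1, the aminotransferase of the next step, had 67.8, 82.1 and 79.1 CPM in the bEnd.3 libraries and 68.7, 63.6 and 29.96 CPM in those of UV2 and missed the threshold (log2 fold -0.499, SE 0.27, adjusted p = 0.139). UV2 replicate 3 was far below the other UV2 libraries, and UV2 replicate 1 lay inside the bEnd.3 range. Psph, the phosphatase of the last step, rose from 15.96 ± 1.53 to 30.5 ± 5.98 CPM (log2 fold 0.94, SE 0.15, adjusted p = 0.001). Mthfd2, a mitochondrial folate enzyme, had 37.9, 31.7 and 27.6 CPM in the bEnd.3 libraries and 49.4, 50.6 and 28.8 CPM in those of UV2 (log2 fold change 0.41, adjusted p = 0.135). UV2 replicate 3 lay within the bEnd.3 range. Mthfd2 passed with the replicate number as a block (adjusted p = 0.0365) and without UV2 replicate 3 (log2 fold change 0.63, adjusted p = 0.00501). Pycr1, the last enzyme of mitochondrial proline synthesis, had the lowest counts of the 37 genes, with 92 counts in bEnd.3 and 59 in UV2 in all (1.23 ± 0.305 CPM (bEnd.3) and 0.841 ± 0.262 CPM (UV2), adjusted p = 0.17).

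Replicate 3 was the lowest library of its line for all 8 of these enzymes in UV2 and for 6 of 8 in bEnd.3. The 8 enzymes summed to 493, 445 and 387 CPM in bEnd.3 replicates 1, 2 and 3 and 595, 581 and 413 CPM in UV2 replicates 1, 2 and 3. The sum in UV2 replicate 3 was below the highest bEnd.3 sum, so the ranges of the lines overlapped, as the plot of summed levels shows. Between libraries of the same number the UV2 sum was the higher one, but the labels state no pairing. The 12 ER folding genes summed to 3004, 2541 and 2278 CPM in bEnd.3 replicates 1, 2 and 3 and 5159, 5026 and 4797 CPM in UV2 replicates 1, 2 and 3, with no overlap.

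**Figure D3:**
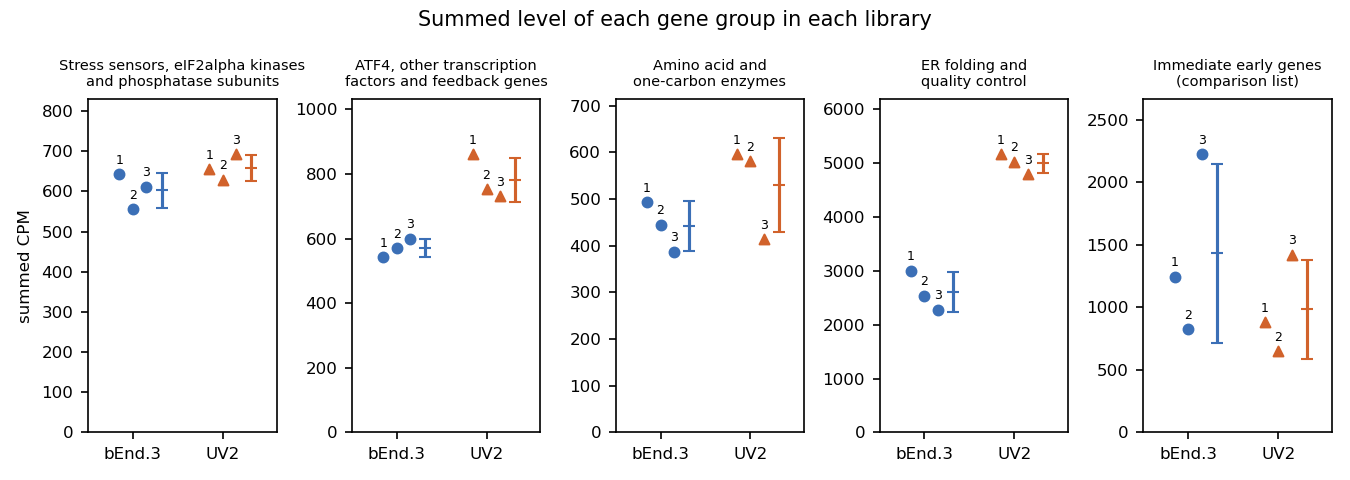
Summed CPM of each of the 4 role groups and of 13 immediate early genes, in each library; circles are bEnd.3, triangles UV2, the small numbers are replicate numbers, and the bar beside them is the mean with its SD over 3 libraries. The ER folding sums of UV2 lie between 4797 and 5159 CPM and those of bEnd.3 between 2278 and 3004 CPM, while the amino acid enzyme sums of the lines overlap.

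Binding of ATF4 with a C/EBP protein is known at a composite site, and TGATGNAA was searched on both strands in the 300 bases from 250 before to 50 after each RefSeq gene start (GRCm38.p6). Promoter windows were found for 33 of the 37 genes, 36 windows in all. The motif was in 6 of these windows, 16.7%, and in 279 of 12282 windows of tested genes, 2.27%. As the genes were listed as known members of these stress responses, known ATF4 targets among them, this share is a description only. It was present in 2 of 8 enzyme genes (Asns and Pycr1), 3 of 10 genes of the transcription factor group (Atf3, Chac1 and Trib3) and 1 of 10 ER folding genes with a window (Herpud1). Those with a match upstream of the start are shown to set the strongly risen Asns and Atf3 beside Chac1 and Pycr1, which did not pass the test. The stretches are Asns chr6:7693210-7693262 (minus strand), Atf3 chr1:191183406-191183473 (minus strand), Chac1 chr2:119351019-119351086 (plus strand), Pycr1 chr11:120643814-120643881 (minus strand) and Herpud1 chr8:94386287-94386354 (plus strand). Each is written 5′ to 3′ on the strand of the gene, with the matched letters in capitals.
Asns: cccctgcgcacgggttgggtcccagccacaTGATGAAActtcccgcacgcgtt
Atf3: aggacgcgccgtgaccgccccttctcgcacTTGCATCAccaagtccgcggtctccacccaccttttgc
Chac1: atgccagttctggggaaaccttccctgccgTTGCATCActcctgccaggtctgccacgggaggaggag
Pycr1: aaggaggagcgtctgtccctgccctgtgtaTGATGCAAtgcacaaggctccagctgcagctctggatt
Herpud1: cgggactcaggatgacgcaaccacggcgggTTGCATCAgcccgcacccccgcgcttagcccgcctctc

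Asns and Pycr1 held the motif in the forward sense, and Atf3, Chac1 and Herpud1 in the reverse sense. Of the 6 members with a match, Atf3, Asns, Trib3 and Herpud1 were called higher (log2 fold change 2.25, 1.41, 1.199 and 0.91). Chac1 (0.15) and Pycr1 (-0.54, with the lowest counts of the members) did not pass. Of the 262 tested genes whose windows held the motif, members included, 105 (40.1%) were higher in UV2 and 83 lower (median log2 fold change 0.15). Without the members 39.5% were higher. Among all 12720 tested genes, with a window or not, 33.9% were higher and 33.3% lower. A match of letters is a description and does not show that a factor binds there.

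ER folding and quality control genes were higher in UV2 with 1 exception. Of the 12 genes, 11 were called higher, none was called lower, and Edem1 did not pass the test. The median log2 fold change was 0.86 and single genes ranged from 0.25 to 1.503. Under every alternative scaling, filter, test and left-out library that was run, 11 or 12 of the 12 were called higher and none lower. Summed over the 12 genes the level in UV2 was 1.92 times that in bEnd.3. Pdia3, Calr and Canx took 67.5% to 71.0% of this sum, and the other 9 genes summed to 781 ± 100.1 CPM in bEnd.3 and 1581 ± 104 CPM in UV2, a ratio of 2.02.

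Pdia6, a protein disulfide isomerase (chr12:17266589-17284785), had the largest difference. Its level was 223, 147 and 128 CPM in the bEnd.3 libraries and 512, 485 and 415 CPM in those of UV2, 2.83-fold higher (log2 fold 1.503, SE 0.1999, adjusted p = 0.000328). The lines were far apart, and in each line replicate 1 was the highest and replicate 3 the lowest library. Calr, calreticulin, a calcium-binding lectin chaperone of glycoproteins (chr8:84842088-84846931), had 630.1, 510.5 and 435 CPM in the bEnd.3 libraries and 1432, 1425 and 1362 CPM in those of UV2, 2.68-fold higher (log2 fold 1.42, SE 0.13, adjusted p = 4.9e-05). The UV2 libraries were tightly grouped and every one was far above the highest bEnd.3 library. Creld2, a small ER stress-induced factor (chr15:88819646-88826681), had 32.4, 26.01 and 24.6 CPM in the bEnd.3 libraries and 78.1, 72.5 and 68.5 CPM in those of UV2, 2.64-fold higher (log2 fold 1.401, SE 0.11, adjusted p = 2.51e-05). Its libraries did not overlap. Creld2 lies on chromosome 15 as Atf4 does, and with its neighbours' median of 0.69 removed it was still called (log2 fold change 0.72, adjusted p = 0.000917) but no longer beyond 2-fold. The call beyond 2-fold for Calr held in all 15 alternatives, and that for Pdia6 in 9 of 15, being lost with DESeq2 and limma-voom and without bEnd.3 replicate 2 or 3 or UV2 replicate 1 or 2.

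Hyou1, the large ER chaperone GRP170, rose from 126 ± 18.9 to 290.3 ± 26.2 CPM (log2 fold 1.21, SE 0.12, adjusted p = 7.05e-05) and was called beyond 2-fold in 4 of 15 alternatives, the blocking term among them. Pdia4, a disulfide isomerase with an additional thioredoxin domain, rose from 112 ± 17.2 to 245 ± 1.996 CPM (log2 fold 1.12, SE 0.11, adjusted p = 5.87e-05), and its UV2 libraries lay within a few CPM of each other. Pdia3, the isomerase ERp57 that works with calreticulin and calnexin, rose from 645 ± 104 to 1063 ± 26.6 CPM (log2 fold 0.72, SE 0.12, adjusted p = 0.000854). Canx, the membrane-bound lectin chaperone calnexin, rose from 656 ± 70.6 to 943 ± 59.3 CPM (log2 fold 0.52, SE 0.096, adjusted p = 0.00179).

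Of the remaining genes of the group, Herpud1, Sdf2l1, Manf and Sel1l also rose. Herpud1, a membrane component of ER-associated degradation that is strongly induced by ER stress, rose from 33.97 ± 3.45 to 64.1 ± 5.76 CPM (log2 fold 0.91, SE 0.103, adjusted p = 0.000136). Sdf2l1, a cofactor of BiP, rose from 13.04 ± 2.11 to 22.9 ± 2.499 CPM (log2 fold 0.81, SE 0.14, adjusted p = 0.0014). Manf, an ER-resident neurotrophic factor, rose from 62.3 ± 6.19 to 85.1 ± 5.89 CPM (log2 fold 0.45, SE 0.091, adjusted p = 0.00292), and removal of chromosome medians raised its log2 fold change to 0.73. Sel1l, the adaptor of the HRD1 ubiquitin ligase, rose from 151 ± 6.47 to 225 ± 1.13 CPM (log2 fold 0.57, SE 0.061, adjusted p = 0.000109).

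Edem1, a mannosidase-like factor that hands glycoproteins to degradation (chr6:108824045-108859356), had the smallest difference of the group. It had 101, 80.9 and 83.9 CPM in the bEnd.3 libraries and 110.4, 109 and 95.5 CPM in those of UV2 (log2 fold change 0.25, SE 0.102, adjusted p = 0.0632). UV2 replicate 3 lay below bEnd.3 replicate 1, so the lines overlapped. With the replicate number as a block Edem1 passed (adjusted p = 0.0309), as it did without bEnd.3 replicate 1 (adjusted p = 0.00773) or UV2 replicate 3 (adjusted p = 0.0398). Replicate 1 was the highest library of its line for 10 of the 12 genes in bEnd.3 and 10 of the 12 in UV2, and replicate 3 was the lowest for 8 and 11 of them.

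ER chaperone promoters are known for the ER stress element, CCAAT and CCACG with 9 bases between them, which ATF6 and the CCAAT factor NF-Y bind. It was searched on both strands in the same windows. Of the 10 ER folding genes with a window 4 held it (Calr, Canx, Creld2 and Pdia6). No gene with a window in the other role groups did, and 14 of 12282 windows of tested genes did, 0.114%. The 3 ER folding genes beyond 2-fold, Pdia6, Calr and Creld2, were among these 4, beside Canx at a log2 fold change of 0.52. Herpud1 (0.91), which had a window, held no match and also rose. No match is listed for Hyou1 (1.21) or Pdia4 (1.12), which rose too. Only 10 of the 12 genes had a window, and genes lacking a window were not searched. As the genes were listed as known ER stress targets, the share with the element is a description only. The stretches are Calr chr8:84847045-84847123 (minus strand), Canx chr11:50325770-50325848 (minus strand), Creld2 chr15:88819490-88819568 (plus strand) and Pdia6 chr12:17266461-17266539 (plus strand) in GRCm38.p6, from RefSeq gene starts. They are written 5′ to 3′ on the gene's strand with the whole element, the 9 spacer bases included, in capitals, to show that the element ran in either sense and that its spacer differed.
Calr: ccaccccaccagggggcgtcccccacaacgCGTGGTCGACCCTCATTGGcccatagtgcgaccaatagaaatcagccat
Canx: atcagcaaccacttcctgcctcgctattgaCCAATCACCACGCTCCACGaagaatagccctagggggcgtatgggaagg
Creld2: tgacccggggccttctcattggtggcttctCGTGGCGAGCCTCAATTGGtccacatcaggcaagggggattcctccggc
Pdia6: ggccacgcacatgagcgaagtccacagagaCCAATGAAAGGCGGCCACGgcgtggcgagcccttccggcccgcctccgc

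Canx and Pdia6 carried the element in the forward sense, and Calr and Creld2 in the reverse sense. It began between 98 and 162 bases before the gene start. Outside the members, 10 tested genes held the element, of which 5 rose in UV2, 3 fell and 2 missed the threshold. The UPR element TGACGTGG, whose last letters are the reverse complement of the CCACG of the ER stress element, was in no member's window and in 0.847% of windows of tested genes. The palindromic cAMP-type element TGACGTCA was in the window of Ppp1r15a alone among the members and in 3.02% of windows of tested genes. Sites beyond these windows or with other letters were not searched, and a match of letters does not show that a factor binds there. Atf6 RNA was lower in UV2, as given above, and Calr, Canx, Creld2 and Pdia6 were higher. RNA counts do not measure ATF6 cleavage, and the part of ATF6 in these differences was not tested.

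Other genes of the same pathways, in 7 lists of 88 genes of which 84 were tested, were then counted. Of the 84, 51 rose in UV2 (60.7%), 10 fell (11.9%) and 23 missed the threshold, with a median log2 fold change of 0.395. Among all tested genes 33.9% were higher and 33.3% lower, which is the background for each list below. Among 14 other ER chaperones and oxidoreductases 13 were higher, none lower and 1 did not pass (median log2 fold change 0.77). Hspa5, the central ER chaperone BiP, had 650.2, 519.5 and 431 CPM in the bEnd.3 libraries and 1155, 1144 and 1039 CPM in those of UV2 (log2 fold 1.06, SE 0.14, adjusted p = 0.000361). Hsp90b1, the ER chaperone GRP94, rose from 652 ± 105 to 1338 ± 125 CPM (log2 fold 1.04, SE 0.13, adjusted p = 0.000229). The largest differences of that list were those of the oxidoreductase Txndc5 (log2 fold 1.84, SE 0.16, adjusted p = 3.47e-05) and of P4hb, a disulfide isomerase and subunit of the collagen prolyl hydroxylase (log2 fold change 1.16). In the plot of lists, the ER chaperone genes and the 12 ER folding genes lie to the right of 0 without exception.

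**Figure D4:**
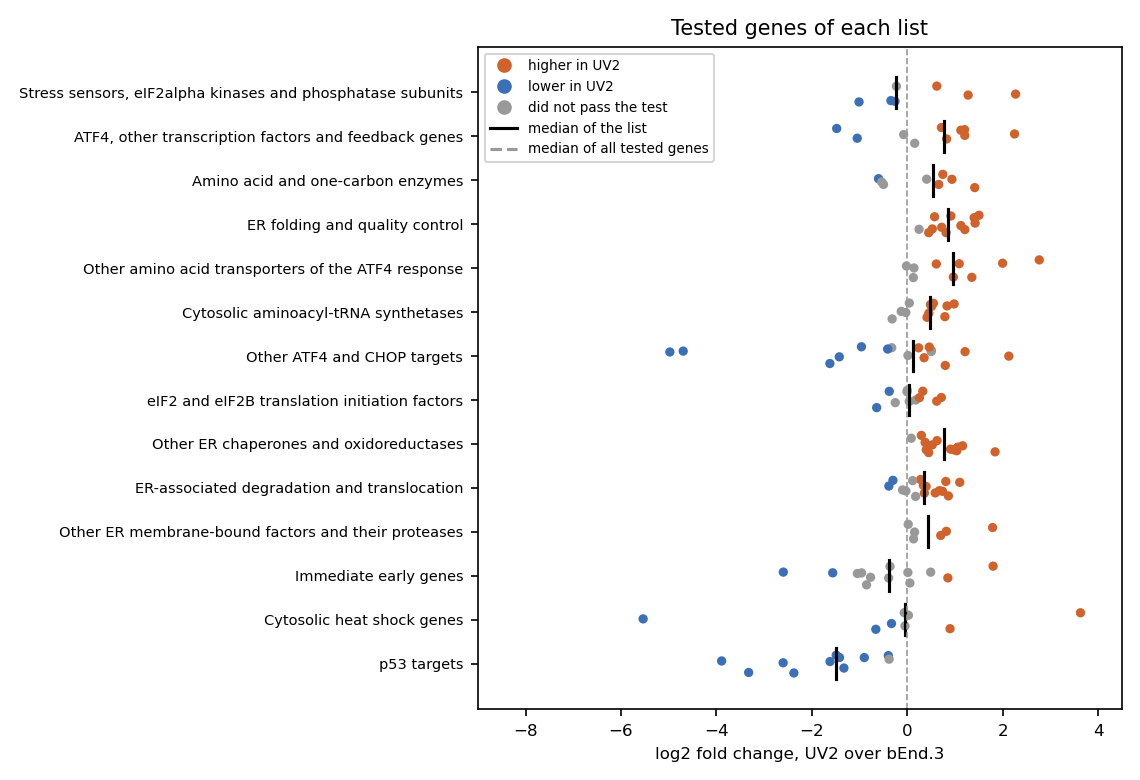
Log2 fold change of UV2 over bEnd.3 for each tested gene of the 4 role groups, the 7 other pathway lists and 3 comparison lists; each point is a gene, placed with vertical scatter only to part them, orange for higher, blue for lower and grey for not passing the test, black bars are list medians and the dashed line is the median of all tested genes. The medians of the ER folding genes and the other ER chaperones are 0.86 and 0.77, while the p53 targets lie below 0.

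Of 16 tested genes of ER-associated degradation and translocation 10 rose, 2 fell and 4 missed the threshold (median log2 fold change 0.35). Ssr1, a subunit of the translocon-associated complex, rose most (log2 fold 1.099, SE 0.084, adjusted p = 1.81e-05), and Erlec1, an ER lectin, was the lowest (log2 fold -0.39, SE 0.088, adjusted p = 0.00539; adjusted p = 0.0998 with neighbouring-gene medians removed). Of 6 tested genes for other ER membrane-bound factors and their proteases 3 were higher, none lower and 3 did not pass. Creb3l2, a collagen-secretion factor cut like ATF6, rose from 61.4 ± 6.37 to 212 ± 16.1 CPM (log2 fold 1.79, SE 0.097, adjusted p = 3.11e-06). Atf6b, the paralog of Atf6, rose from 72.9 ± 6.11 to 129 ± 8.27 CPM (log2 fold 0.82, SE 0.084, adjusted p = 8.43e-05), opposite to Atf6.

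On the ATF4 side, 6 of 9 amino acid transporters rose, none fell and 3 did not pass (median log2 fold change 0.97). With neighbouring-gene medians removed 4 of 9 were called higher, as Slc38a2 and Slc7a5 lost their calls. Slc7a11, the cystine-glutamate exchanger, rose from 58.9 ± 5.28 to 400.4 ± 37.2 CPM (log2 fold 2.77, SE 0.103, adjusted p = 4.95e-07), and Slc1a5, a glutamine carrier, rose from 27.7 ± 11.2 to 110.2 ± 17.1 CPM (log2 fold 1.998, SE 0.27, adjusted p = 0.000375). Of 12 cytosolic aminoacyl-tRNA synthetases 8 rose, none fell and 4 did not pass (median log2 fold change 0.47). The serine enzyme Sars (log2 fold change 0.98, SE 0.062) and the isoleucine enzyme Iars (log2 fold change 0.83, SE 0.11) led them. The tryptophan enzyme Wars was called lower with scaling by total counts (adjusted p = 0.041) and the cysteine enzyme Cars with replicate number as a blocking term (adjusted p = 0.0133), both named after their values were seen. A mixed list of other ATF4 and CHOP targets went both ways, with 7 of 16 tested genes higher (43.8%), 6 lower (37.5%) and 3 not passing. Among all tested genes 33.9% were higher and 33.3% lower. The lipoprotein receptor Vldlr rose from 66.1 ± 14.1 to 289 ± 72.1 CPM (log2 fold change 2.13), and Cbs, the entry enzyme of transsulfuration, fell from 4.69 ± 1.95 to 0.157 ± 0.204 CPM (log2 fold -4.98, SE 0.69, adjusted p = 0.000405). The count of higher genes in that list was 3 with chromosome medians removed and 4 without bEnd.3 replicate 2 or without UV2 replicate 1. Among eIF2 and eIF2B genes 4 of 11 were higher (36.4%, close to the share of all tested genes), 2 lower (18.2%) and 5 did not pass. They ranged from Eif2s2, the beta subunit (log2 fold change -0.64), to Eif2s3x, the gamma subunit (log2 fold change 0.71), whose counts are uncertain because a near-identical Y-linked copy exists. That copy, Eif2s3y, stood at 62.7 ± 6.08 CPM (bEnd.3) and 0.0452 ± 0.0488 CPM (UV2), so the lines differed at both copies, and its part in the Eif2s3x difference was not tested.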

How the data were processed

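RNA-seq was made from 3 bEnd.3 and 3 UV2 libraries (TruSeq Stranded mRNA kit, per the labels' protocols). The authors deposited expected counts per gene symbol, not normalized, made with Trim Galore, STAR, RSEM and the mm10 build per the submitters' processing notes, with versions, annotation and strand setting not given in the sources used here. Reads of overlapping antisense genes may thus be mixed. Totals were 21306441 to 28748128 per library. Expected counts were rounded, 12720 of 24411 genes were kept by filterByExpr, scaled by TMM and fitted with edgeR's quasi-likelihood test on line alone, with Benjamini-Hochberg adjustment over all tested genes and calls under 0.05. Changes beyond 2-fold were tested with glmTreat on that fit.

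Members, role groups and lists were chosen with earlier results of these data known. Every member is named, and members with the highest and lowest change of a role group, those beyond 2-fold, and Atf4, Ddit3 and Xbp1 have values in every library. Of each other list the highest and lowest called gene reaching 1 CPM in either line is named (the 2 largest where all went one way), with Hspa5 and Hsp90b1. Other members' library values and the marker genes were added after their values were seen. Protein sequences were not used here.

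Alternatives were RLE size factors, total counts, no filter, a minimum of 1 CPM in 3 libraries, a term for the replicate number (block), DESeq2, limma-voom, leaving out each library, and chromosome or neighbouring-gene (50 each side) medians removed as offsets, with positions from RefSeq GRCm38.p6 for 99.7% of tested genes. Deviations of same-numbered libraries from their line means correlated at 0.126, 0.232 and 0.279, and those of differently numbered ones at -0.296 to 0.084. The labels state no pairing, and the replicate number was used as a block only as an alternative to the main fit. No replicate pair was a duplicate (chi-square 11.3 to 38.4 per degree of freedom). The procedure was also run on simulated counts with few changed genes and no chromosome-wide shifts. As 67.1% of tested genes were called here, that run does not measure the error rate in these data. Fits used edgeR 4.0.16, DESeq2 1.42.0 and limma 3.58.1 under R 4.3.3, and figures matplotlib 3.10.9 under Python 3.11.15.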

Additional observations from a re-analysis of the deposited data

How the results depend on the processing

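Of the 37 members, 24 were called higher and 6 lower in UV2, and the alternatives gave 24 to 26 higher and 5 to 7 lower, with 24 to 26 higher and 5 to 6 lower when 1 library was left out. The count of members called lower beyond 2-fold, 1 in the main analysis, was 0 with DESeq2, 0 with limma-voom and 2 with neighbouring-gene medians removed, and it ranged from 0 to 1 when 1 library was left out. The cause was not tested. Cebpg reversed with chromosome medians removed (log2 fold change 0.21) and with neighbouring-gene medians removed (0.27). Of other pathway and comparison genes, Edem2 (0.25 and 0.26) and Edem3 (0.16 and 0.16) reversed under both removals, and Yars (-0.03004), Hspa8 (0.26) and Bag3 (0.046) under the second. The replicate block gave 26 members higher and 6 lower, adding Mthfd2 and Edem1, and 8 members higher beyond 2-fold where the main analysis gave 6, adding Ppp1r15a and Hyou1. It changed no other member's call at either threshold. Scaling by total counts moved the median of all tested genes to -0.076. Depth was lowest for Pycr1 among the members, at 92 counts in bEnd.3 and 59 in UV2.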

Other observations

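Cytosolic heat shock genes, which answer to misfolded protein outside the ER, were called in both directions. Of 8 genes 2 rose in UV2, 3 fell and 3 missed the threshold, beside 33.9% higher and 33.3% lower among all tested genes, with a median log2 fold change of -0.056. Summed over the list, levels were 4299.9, 3621 and 3407 CPM in bEnd.3 replicates 1, 2 and 3 and 4136, 3675 and 3921 CPM in UV2 replicates 1, 2 and 3, and the lines overlapped. Hspa1b, an inducible HSP70 gene, rose from 10.6 ± 2.53 to 130.05 ± 7.78 CPM (log2 fold 3.63, SE 0.16, adjusted p = 1.12e-06), while its near-identical copy Hspa1a fell from 4.49 ± 0.423 to 2.85 ± 0.4295 CPM (log2 fold -0.66, SE 0.17, adjusted p = 0.0101), so the division of reads between these copies is uncertain. Among immediate early genes, Ier3 rose from 15.2 ± 4.35 to 52.8 ± 13.9 CPM (log2 fold 1.798, SE 0.25, adjusted p = 0.000458) and Nr4a1 fell from 67.5 ± 31.4 to 11.02 ± 7.35 CPM (log2 fold -2.599, SE 0.48, adjusted p = 0.00183). Those sums were 1245, 826 and 2222 CPM in bEnd.3 replicates 1, 2 and 3 and 883, 651 and 1419 CPM in UV2 replicates 1, 2 and 3.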
